A study of Mus musculus with 53 samples.

Results

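Creatine kinases and the genes that supply creatine were followed in adult mouse hearts. The 6 genes were chosen by their symbols, not by their values: Ckm, Ckmt2 and Ckb, which encode creatine kinases, Gatm and Gamt, which encode the enzymes of creatine synthesis, and Slc6a8, which encodes the creatine transporter. They are 6 of the 34306 genes in the table. Creatine kinase passes a phosphate group between ATP and creatine. In the heart, a mitochondrial form charges creatine where ATP is made, and cytosolic forms return the phosphate to ADP at the sarcomere and at ion pumps, so that phosphocreatine buffers and carries energy. Heart muscle is known to take up creatine from the blood by its transporter, while kidney and liver are the main sites of its synthesis.

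RNA was sequenced from 2 fractions of heart tissue. Input is cytoplasmic RNA as a whole, and TRAP is RNA bound to tagged ribosomes and pulled down with them (translating ribosome affinity purification). By the labels of the first deposit, the tag was present in all cell types of CAG hearts, and in Tie2 hearts it was switched on by Tie2-Cre, a Cre recombinase of endothelial cells. Those labels give a mixed 129/C57BL background. The libraries were, in CAG hearts, 2 of TRAP and 2 of input after banding (a ligature around the ascending aorta), 2 of TRAP and 2 of input after sham surgery (the same operation without the ligature), and without surgery 1 each of Tie2 TRAP, Tie2 input, CAG TRAP and CAG input. The operated mice were male, the labels used here name no time between surgery and collection, and all libraries came from adult mice of the tagged lines. RNA was pooled before sequencing, and the labels do not say whether 2 libraries of 1 group came from different mice. The p-values therefore reflect the spread between libraries alone, and that spread may be technical. These hearts were bulk tissue, so fewer cells of a type and less RNA per cell cannot be told apart.

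Values are the deposited RPKM, in which reads are divided by transcript length and by library size, so that levels of different genes can be compared per length. The libraries held 26568988 to 94878619 reads in genes. Mitochondrially encoded transcripts took 13.7 to 15.9% of the reads of the 5 CAG inputs, but 3.17% in Tie2 input, and at most 0.293% in the 6 TRAP libraries. Cardiomyocyte markers were abundant in every input library, and all 10 of them were above 0 in all 12 libraries. The endothelial label of Tie2 TRAP was checked with 10 endothelial markers, whose level there was 445 to 1971% of that in Tie2 input. The 7 macrophage and leukocyte markers in the table were also high there, at 349 to 1581% of input, so that the Tie2 TRAP library held RNA of both kinds of marker.

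Among the 6 genes, the muscle kinases were the most abundant and the genes of creatine synthesis the scarcest. In the CAG sham input libraries, Ckm averaged 1696 ± 21.7 RPKM and Ckmt2, the sarcomeric mitochondrial kinase, 1122 ± 9.71 RPKM (SD, n = 2 each). Slc6a8 followed at 37.5 ± 0.711 RPKM, and Ckb, the brain-type cytosolic kinase, at 25.5 ± 0.283 RPKM. Gamt, which methylates guanidinoacetate to creatine, averaged 8.04 ± 0.720 RPKM, and Gatm, which makes guanidinoacetate from arginine and glycine, 1.96 ± 0.00137 RPKM. The values of neighbours in this order did not overlap. The order was the same in each of the 10 CAG libraries, although Slc6a8 and Ckb were close in the CAG input without surgery, at 30.2 and 29.8 RPKM. Ckmt1, the ubiquitous mitochondrial kinase, lay between 0.0325 and 0.581 RPKM over the 12 libraries and did not pass the filter on low values.

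All 6 members passed the filter of 1 RPKM or more in at least 2 libraries, as 11654 genes of the table did. Gatm passed through the input libraries and Tie2 TRAP, since it was under 1 RPKM in 4 of the 5 CAG TRAP libraries. Its values rest on 69 to 888 reads a library. Those of Gamt rest on 176 to 1252 reads, and those of the other 4 members on 1002 reads or more in every library. Intervals from reads cover counting error only.

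**Figure D1:**
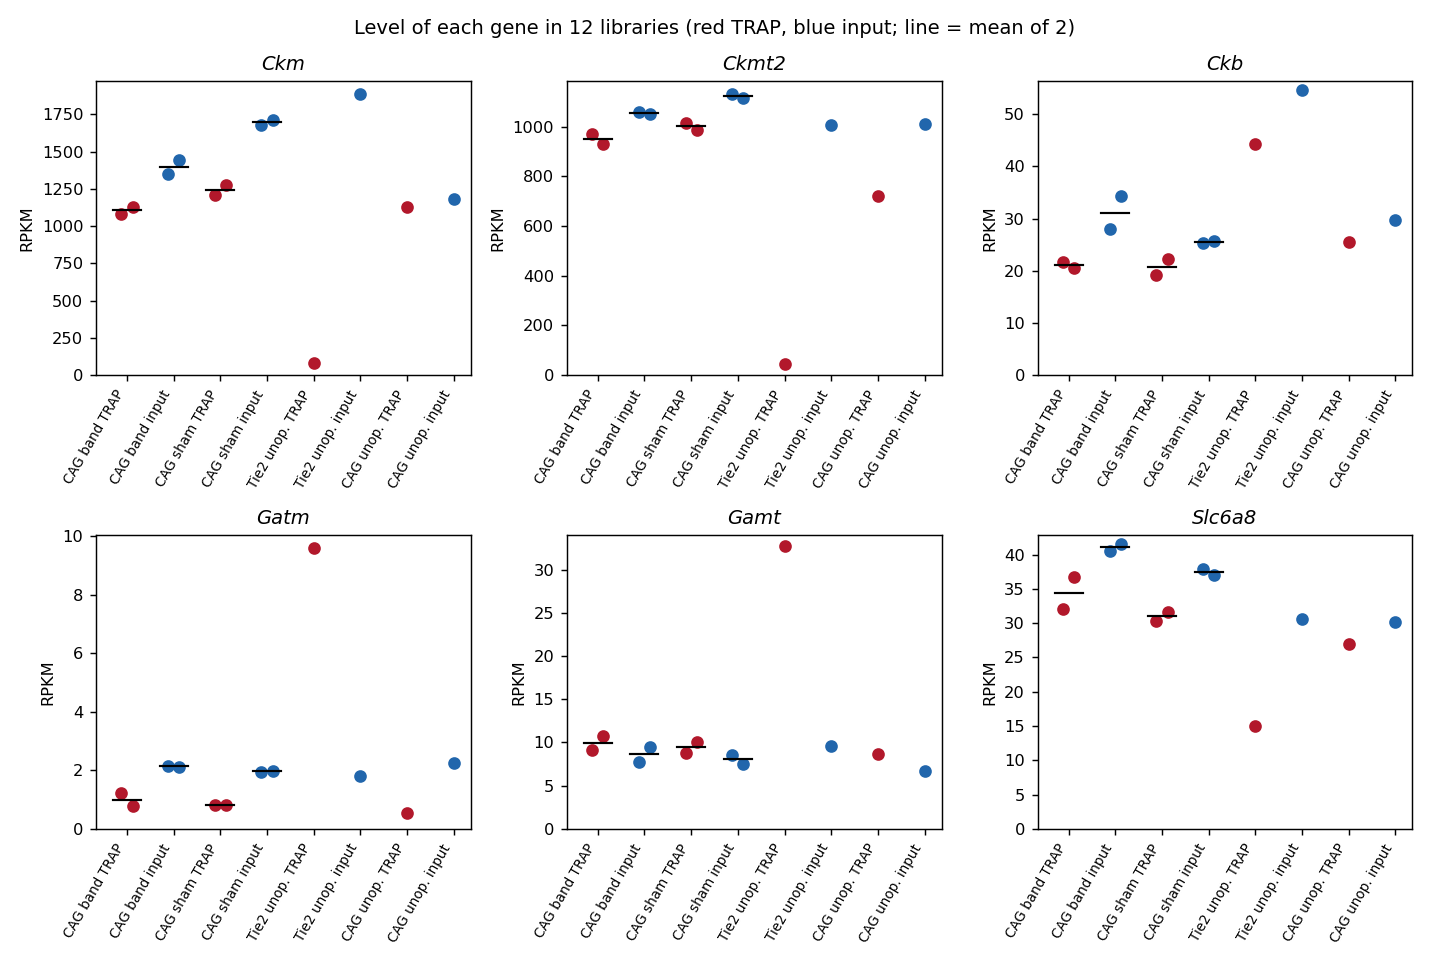
RPKM (vertical axes, from 0) of the 6 genes in the 12 libraries, grouped along the horizontal axis by mouse line, operation and fraction (unop., without surgery), with TRAP in red, input in blue and a line at the mean of 2 libraries. In Tie2 TRAP, Ckm lies at 80.2 and Ckmt2 at 46.3 RPKM, below the other 11 libraries, while Gatm at 9.60 and Gamt at 32.7 RPKM lie above them.

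The sequences before the start of the genes are shown for the cytosolic kinases, the muscle form and the brain form, and for the enzymes of synthesis, because in Tie2 hearts Ckm was far lower in TRAP than in input, Ckb was close to input, and both enzymes of synthesis were higher. They are the 150 bases upstream of the start in RefSeq GRCm38.p6, where 5 of the 6 genes had an entry, and the files themselves use the build NCBIM37. Capitals mark matches to TATANA (TATA box) and CCAAT on either strand.
Ckm, chr7:19410944-19411093, plus strand: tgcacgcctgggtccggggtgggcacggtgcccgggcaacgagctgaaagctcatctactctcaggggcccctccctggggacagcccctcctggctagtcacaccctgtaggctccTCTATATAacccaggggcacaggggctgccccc
Ckb, chr12:111672339-111672488, minus strand: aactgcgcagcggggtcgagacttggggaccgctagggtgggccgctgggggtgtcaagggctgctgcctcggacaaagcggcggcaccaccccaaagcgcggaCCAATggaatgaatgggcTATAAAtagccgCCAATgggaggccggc
Gatm, chr2:122611278-122611427, minus strand: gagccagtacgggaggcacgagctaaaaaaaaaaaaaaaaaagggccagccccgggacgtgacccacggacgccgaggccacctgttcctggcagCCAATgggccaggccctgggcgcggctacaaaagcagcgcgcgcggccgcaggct
Gamt, chr10:80261013-80261162, minus strand: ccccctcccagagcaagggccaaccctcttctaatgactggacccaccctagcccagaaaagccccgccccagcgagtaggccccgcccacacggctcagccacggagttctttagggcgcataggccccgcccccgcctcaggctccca

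TATANA matched in the windows of Ckm and Ckb, and in 14.1% of 27025 promoter windows of the same length. In Ckm the capitals hold 2 places of match that overlap, TCTATA on the opposite strand only and TATATA on both strands. In Ckb the match starts 28 bases before the start. CCAAT matched in the windows of Ckb, Gatm and Ckmt2, against 25.3% of all windows, and nowhere did it overlap a TATANA match. The GC box GGGCGG, on either strand and left in lower case, matched 3 times in Gamt and once in Ckmt2, against 29.0% of all windows. An E-box, CANNTG, matched in Gatm and Ckmt2, against 47.4%. These matches describe the letters of the windows only.

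TRAP RNA was first set against input RNA of CAG hearts after the same operation, to ask which transcripts differed between ribosome-bound and cytoplasmic RNA. Ckm and Gatm were called lower in TRAP after both operations, and no member was called higher. Ckb was called lower after banding, and lay below input without a call after sham surgery. After sham surgery 2 of the 6 members were called lower in TRAP by limma at an adjusted p under 0.05, where 24.5% of all 11654 genes were called lower and 39.6% in either direction. After banding 3 of 6 were called lower, where 26.0% of all genes were called lower and 42.6% in either direction. The median log2 fold change of the 6 members was -0.28 after sham surgery and -0.29 after banding, beside -0.09 and -0.10 over all genes tested. TRAP and input libraries did not overlap for 6 members after sham surgery, beside 79.2% of all genes, and for 5 after banding, beside 69.1%. Fold changes here are on the scale of log2(RPKM + 1), which understates the change of genes near 1 RPKM such as Gatm.

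Ckm stood at 1211 and 1274 RPKM in sham TRAP, against 1681 and 1712 RPKM in sham input. After banding it stood at 1084 and 1128 RPKM in band TRAP, against 1351 and 1442 RPKM in band input. Both TRAP libraries lay below both input libraries after each operation. The log2 fold change was -0.45 after sham surgery (SE 0.08, limma, adjusted p = 0.00537) and -0.34 after banding (SE 0.08, adjusted p = 0.0139), and the TRAP level was 73.3% and 79.2% of the input level. The call after sham surgery was lost without sham TRAP library 1 (adjusted p = 0.0504), the only 1 of 17 alternatives in which it was, over a range from 0.00119. The call after banding was lost without band input library 2 (adjusted p = 0.0797), again the only 1 of 17, over a range from 0.00227.

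Ckmt2, bound to the inner mitochondrial membrane of muscle, was read at 1015 and 988 RPKM in sham TRAP, against 1129 and 1115 RPKM in sham input. In band TRAP it was read at 971 and 929 RPKM, against 1058 and 1049.5 RPKM in band input. The TRAP libraries were below the input libraries each time, by less than for Ckm, and the difference did not pass the test (log2 fold change -0.16, SE 0.07, adjusted p = 0.114 after sham surgery and -0.15, SE 0.07, adjusted p = 0.140 after banding, limma). It was called lower after sham surgery without either of the band TRAP libraries, which belong to neither group but to the shared spread (adjusted p = 0.0407 and 0.0415, over a range up to 0.352).

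Ckb stood at 19.1 and 22.3 RPKM in sham TRAP, against 25.3 and 25.7 RPKM in sham input. It stood at 21.8 and 20.5 RPKM in band TRAP, against 28.1 and 34.2 RPKM in band input. TRAP and input did not overlap after either operation, and the band input libraries were the highest and the most spread of these 8. The log2 fold change was -0.29 after sham surgery (SE 0.12, limma, adjusted p = 0.0910) and -0.53 after banding (SE 0.12, adjusted p = 0.0116). The call after banding was lost without band input library 2 (adjusted p = 0.0632), the only 1 of 17 alternatives in which it was, over a range from 0.00319.

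Gatm was scarce in TRAP RNA, at 0.816 and 0.801 RPKM in sham TRAP against 1.96 and 1.96 RPKM in sham input. It was at 1.21 and 0.774 RPKM in band TRAP, against 2.15 and 2.13 RPKM in band input. No TRAP library reached any input library, and the input libraries of both operations lay close together. The log2 fold change was -0.71 after sham surgery (SE 0.12, limma, adjusted p = 0.00438) and -0.66 after banding (SE 0.12, adjusted p = 0.00484). In plain RPKM the TRAP level was 41.2% and 46.4% of the input level, and voom on the recovered reads gave log2 fold changes of -1.27 and -1.17. Both calls held under all 16 alternatives that kept the gene.

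Gamt, which takes the next step after Gatm, was at 8.80 and 10.1 RPKM in sham TRAP, against 8.55 and 7.54 RPKM in sham input. It was at 9.07 and 10.7 RPKM in band TRAP, against 7.74 and 9.49 RPKM in band input. Its TRAP libraries were the higher ones on average, with overlap after banding, and neither difference passed the test (log2 fold change 0.21, SE 0.13, adjusted p = 0.254, and 0.18, SE 0.13, adjusted p = 0.308, limma). The sign of these small differences turned when a trend with transcript length was removed from each library (-0.0076 and -0.0060), and after banding also when libraries were rescaled without the most abundant genes (-0.0080).

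Slc6a8 was at 30.4 and 31.7 RPKM in sham TRAP, against 38.0 and 37.0 RPKM in sham input. It was at 32.1 and 36.8 RPKM in band TRAP, against 40.6 and 41.6 RPKM in band input. The TRAP libraries were below the input libraries in both settings, and the differences fell just short of the threshold (log2 fold change -0.26, SE 0.09, adjusted p = 0.0536, and -0.25, SE 0.09, adjusted p = 0.0597, limma). Without band TRAP library 2 the gene was called lower after both operations (adjusted p = 0.00897 after sham surgery and 0.00829 after banding), and without band TRAP library 1 after sham surgery (0.00881). Over all alternatives its adjusted p ran up to 0.734 and 0.743, the values with the length trend removed.

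**Figure D2:**
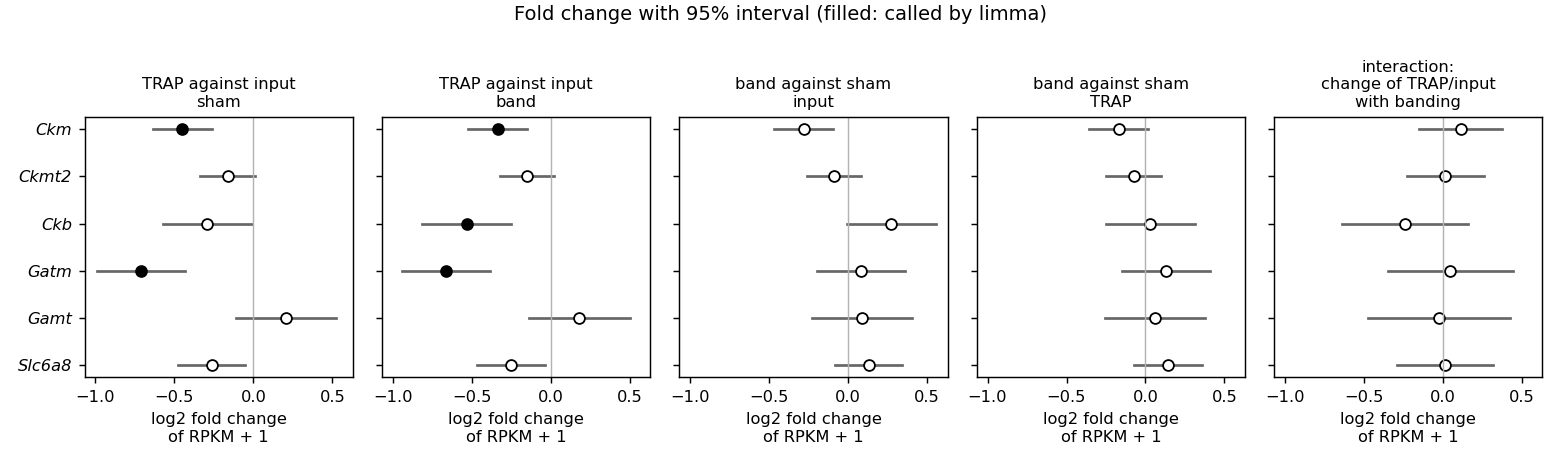
Log2 fold change of RPKM + 1 (horizontal axes) with its 95% interval for the 6 genes in the 5 tested comparisons, with filled points for genes called by limma. Filled points stand for Ckm and Gatm in both comparisons of TRAP with input, and for Ckb in the one after banding. No member is filled in the other 3 comparisons.

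The scaling between libraries moved the calls of TRAP against input. Quantile normalization shifted the median of all genes by 0.14 after sham surgery and 0.15 after banding, and rescaling without mitochondrial, haemoglobin and the 20 most abundant genes shifted it by -0.14 and -0.15. Relative to the median of all genes, Ckm was at -0.36, -0.72 and -0.41 after sham surgery as deposited, under quantile normalization and under rescaling. Gatm was at -0.62, -0.54 and -0.60 in the same order, and Ckmt2 at -0.07, -0.38 and -0.13. The muscle kinase, the first enzyme of synthesis and Ckmt2 thus lay below the median of all genes under each, by amounts that differed over 1.5 times for Ckm and Ckmt2. Ckmt2 and Slc6a8 were called lower in TRAP after both operations under either scaling, and Ckb after sham surgery under rescaling (limma, adjusted p = 0.0174). With the trend over transcript length removed, Ckmt2 was called lower after both operations (adjusted p = 0.0293 and 0.0383) and Ckb also after sham surgery (0.0382). By voom, Slc6a8 was called lower after sham surgery (adjusted p = 0.0437).

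Cell type markers moved between the fractions as well. The summed RPKM of the 10 cardiomyocyte markers was 79964 to 83117 in sham TRAP and 63627 to 63703 in sham input, with 4 called higher and 3 lower. The 9 fibroblast markers summed to 128 to 136 RPKM in sham TRAP and 290 to 295 RPKM in sham input, with 8 called lower. Macrophage and leukocyte markers summed to 147 to 149 RPKM in sham TRAP and 253 to 255 RPKM in sham input, with 5 of 6 tested called lower, and smooth muscle and pericyte markers to 633 to 644 and 1042 to 1073 RPKM, with 5 of 7 called lower. The 10 endothelial markers summed to 99.0 to 102 RPKM in sham TRAP and 103 to 107 RPKM in sham input, with 2 called lower. All 5 erythroid markers were called lower in TRAP after both operations, and of 6 Schwann cell and neuron markers 1 was tested and not called. The median log2 fold change of the 10 cardiomyocyte markers in TRAP against input was 0.39 after sham surgery. The part of the markers of each cell type in the results for Ckm, Gatm and Ckb was not tested.

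Transcript length went with the TRAP to input ratio over all genes, so the members were also set beside genes of like length, within 0.8 to 1.25 times their own, at 5 RPKM or more in the mean. After sham surgery Ckm, at -0.45, was set against a median of 0.23 over 1033 such genes, of which 8.23% were at or below it. Gatm, at -0.71, was set against a median of 0.05 over 1457 genes, of which 4.598% were at or below it, and Ckb, at -0.29, against 0.21 over 1105 genes, of which 13.8% were. Gatm itself was below 5 RPKM in every CAG library, so it was set beside genes of higher level, on a scale that understates its own change. Gamt, at 0.21, was below the median of 0.35 of its 712 genes of like length. All 6 members thus lay below the median of genes of like length after sham surgery.

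The share of each kinase in their summed RPKM does not depend on a single scaling factor per library, and it was not computed under quantile normalization. Ckm made up 54.9 ± 1.30% in sham TRAP and 59.6 ± 0.505% in sham input, and 53.2 ± 1.49% in band TRAP and 56.3 ± 1.16% in band input (SD, n = 2 each). Ckmt2 made up 44.2 ± 1.39% in sham TRAP and 39.5 ± 0.511% in sham input, and 45.7 ± 1.45% in band TRAP and 42.5 ± 1.30% in band input. Ckm thus held the larger share in both fractions, but by less in TRAP, without overlap after either operation. However, 2 libraries against 2 cannot give an exact permutation p below 0.333, which is the value here (two-sided). The unoperated CAG hearts went the other way, with Ckm at 60.3% in the TRAP library and 53.3% in the input library.

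CAG hearts without surgery gave 1 library of each fraction, with no replicate check and no test. Gatm was again lower in TRAP, at 0.551 RPKM against 2.27 RPKM in the input library, a ratio of 0.243 (exact binomial 95% interval from reads 0.190 to 0.311). It was the only member past a 2-fold difference on the log2(RPKM + 1) scale, where 7.53% of genes were as much lower and 0.961% as much higher. Its log2 difference was -1.08, and it was inside that limit under quantile normalization (-0.73) and with the length trend removed (-0.86). Ckm was at 1132 RPKM in CAG TRAP and 1185 RPKM in CAG input, a smaller difference than after either operation. Ckmt2 was at 719 RPKM in CAG TRAP and 1009 RPKM in CAG input, the largest difference for this gene among the 3 pairs of CAG fractions. Ckb was at 25.6 and 29.8 RPKM, Slc6a8 at 26.9 and 30.2 RPKM, and Gamt at 8.67 and 6.70 RPKM, TRAP given first each time. The log2 difference of Slc6a8 was -0.16, and over the 4 alternatives it ran from -0.33 to 0.25, with the change of sign when the length trend was removed.

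Banding was then compared with sham surgery, to ask which transcripts changed under pressure overload. No member was called by limma in either fraction. In input RNA 4.08% of all genes were called and in TRAP RNA 3.77%. At an unadjusted p under 0.05, limma counted 1 member (Ckm) in input and 0 in TRAP, beside 2253 and 2295 of all genes. On the recovered reads, voom called 0 members in both fractions, beside 416 genes in input and 454 in TRAP.

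Ckm was lower in both band input libraries (1351 and 1442 RPKM) than in both sham input libraries (1681 and 1712 RPKM). The log2 fold change was -0.28 (SE 0.08, 95% interval -0.47 to -0.09, limma, adjusted p = 0.112), and the level after banding was 82.3% of that after sham surgery. Without band TRAP library 1 or 2, which changes only the shared spread, Ckm was called (adjusted p = 0.0320 and 0.0325), and over the 17 alternatives its adjusted p ran up to 0.447. In TRAP RNA it was at 1084 and 1128 RPKM after banding, against 1211 and 1274 RPKM after sham surgery, a log2 fold change of -0.17 (SE 0.08, 95% interval -0.35 to 0.02, adjusted p = 0.302). The groups did not overlap in either fraction.

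Ckb differed in the other direction in input RNA, at 28.1 and 34.2 RPKM after banding against 25.3 and 25.7 RPKM after sham surgery (log2 fold change 0.27, 95% interval -0.01 to 0.55, limma, adjusted p = 0.276). It was 0.13 without band input library 2 and 0.41 without band input library 1. In TRAP RNA, at 21.8 and 20.5 RPKM after banding against 19.1 and 22.3 RPKM after sham surgery, the groups overlapped (0.03, 95% interval -0.25 to 0.31, adjusted p = 0.929). Its share of the summed kinases was 1.15 and 1.36% in band input and 0.894 and 0.902% in sham input, while in TRAP it was 1.05 and 0.989% after banding and 0.853 and 0.978% after sham surgery. The groups did not overlap in either fraction, with an exact permutation p of 0.333, the smallest that 2 against 2 can give. A test of whether banding changed the ratio of TRAP to input gave -0.24 for Ckb (SE 0.17, limma, adjusted p = 0.992), with -0.10 without band input library 2, -0.14 without sham TRAP library 2 and -0.38 without band input library 1.

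None of the other 4 members passed the test in either fraction. Ckmt2 had log2 fold changes of -0.09 in input (95% interval -0.26 to 0.08) and -0.08 in TRAP (-0.25 to 0.10). Slc6a8 had 0.13 in input (-0.08 to 0.34) and 0.14 in TRAP (-0.07 to 0.36), with the band libraries above the sham libraries in both. Gatm had 0.08 in input (-0.19 to 0.36) and 0.13 in TRAP (-0.15 to 0.41), and Gamt 0.08 in input (-0.23 to 0.40) and 0.06 in TRAP (-0.26 to 0.38). A miss of the threshold does not show equal levels. The groups did not overlap for 5 members in input, beside 59.7% of all genes, and for 3 in TRAP, beside 44.3% of all genes.

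In the interaction, which asks whether the ratio of TRAP to input differed between operations, limma called 0 members and 0% of all genes. At an unadjusted p under 0.05 it counted 0 members and 557 genes, and voom called 0 genes. The largest of the 6 differences was that of Ckb, given above, and Ckm followed at 0.11 (95% interval -0.15 to 0.38).

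Between operations, marker levels differed as well. Macrophage and leukocyte markers summed to 280 to 336 RPKM in band input and 253 to 255 RPKM in sham input, with 2 of 6 tested called higher. Cardiomyocyte markers summed to 67710 to 68278 RPKM in band input and 63627 to 63703 RPKM in sham input, with 2 of 10 called higher. Their median log2 fold change was 0.05. Endothelial markers summed to 82.2 to 91.3 RPKM in band input and 103 to 107 RPKM in sham input, with 0 of 10 called. The part of these differences in the values of Ckm and Ckb was not tested.

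**Figure D3:**
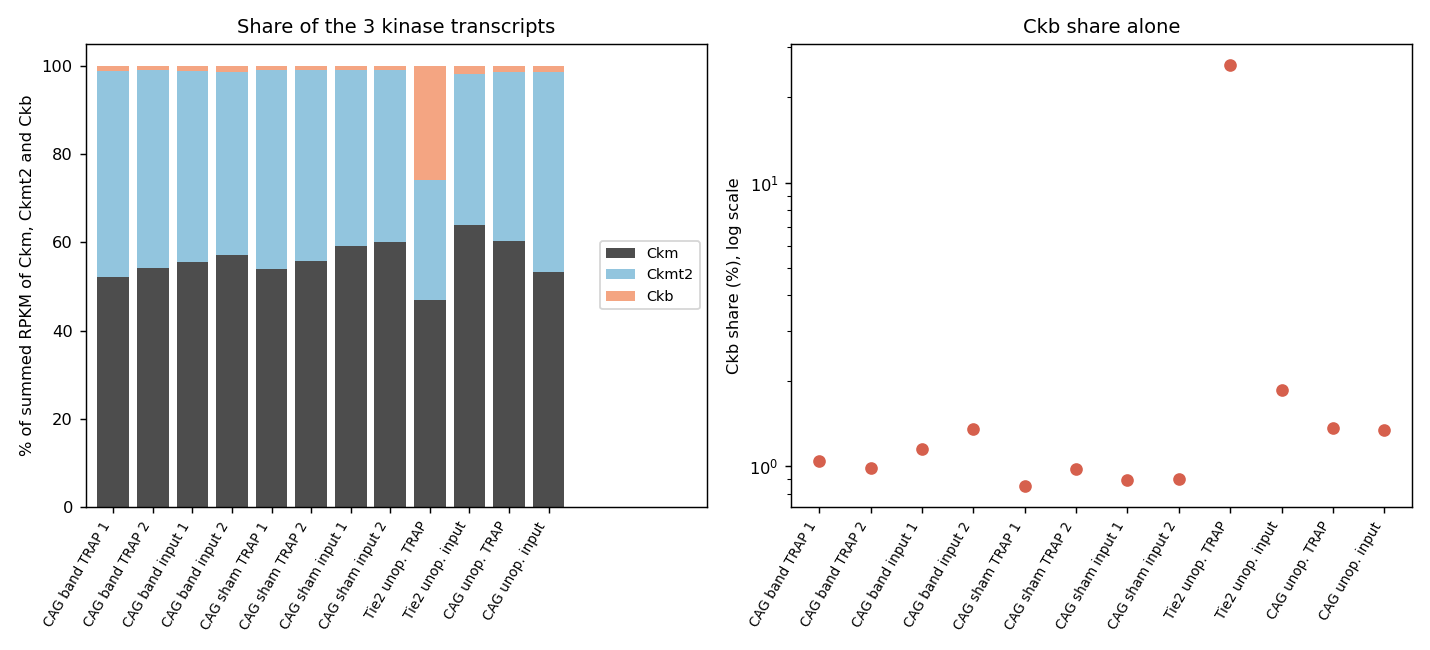
Share of Ckm, Ckmt2 and Ckb in their summed RPKM in each of the 12 libraries (left, stacked bars that reach 100%) and the share of Ckb alone on a log axis (right), with unop. for hearts without surgery. Ckb makes up 26.0% in Tie2 TRAP and 0.853 to 1.86% in the other 11 libraries.

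Tie2 hearts, with the tag switched on by Tie2-Cre, showed the widest contrasts between members. The labels place this Cre in endothelial cells, but macrophage and leukocyte markers were also high in Tie2 TRAP, so its values are not those of endothelial cells alone. The muscle kinases were far lower in Tie2 TRAP than in Tie2 input, the genes of creatine synthesis were higher, and Ckb was nearly as high as in input with the scaling as deposited. Each side is 1 library, so these are descriptions with no replicate check, and their intervals cover counting error only. On the log2(RPKM + 1) scale, Ckm and Ckmt2 were 2-fold or more lower, where 13.1% of genes were, and Gatm and Gamt 2-fold or more higher, where 31.5% were. Slc6a8, at -0.98, was just inside the 2-fold limit as deposited, and past it under each of the 4 alternatives (-1.60 to -1.02).

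Ckm was at 80.2 RPKM in Tie2 TRAP and 1884 RPKM in Tie2 input, 23.5-fold lower. Ckmt2 was at 46.3 RPKM in Tie2 TRAP and 1005 RPKM in Tie2 input, 21.7-fold lower. The TRAP levels were 4.26% and 4.61% of input, within the range of the 10 cardiomyocyte markers, from 2.20% for Myl2, a ventricular myosin light chain, to 21.2% for Pln, the inhibitor of the calcium pump SERCA, with a median of 6.51%. The ratio of Ckm to Ckmt2 was 1.73 in Tie2 TRAP and 1.87 in Tie2 input. The part of cardiomyocyte RNA in the Tie2 TRAP values of these kinases was not tested.

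Ckb was at 44.3 RPKM in Tie2 TRAP and 54.6 RPKM in Tie2 input, a ratio of 0.812 (95% interval 0.773 to 0.854). On the log2(RPKM + 1) scale this was -0.29, with -0.76 to -0.30 under the 4 alternatives. It made up 26.0% of the summed kinases in Tie2 TRAP, beside 46.9% for Ckm and 27.1% for Ckmt2, and 1.86% in Tie2 input. Tie2 input itself held more Ckb than the CAG input without surgery, 54.6 against 29.8 RPKM, and only 5.04% of genes differed as much or more between these inputs. Tie2 input was also the highest of the 12 libraries for Ckm, at 1884 RPKM, and it was the input with few mitochondrially encoded reads. This comparison of inputs was added after the data were seen.

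Gatm was at 9.60 RPKM in Tie2 TRAP and 1.799 RPKM in Tie2 input, a ratio of 5.34 (95% interval 4.595 to 6.22). Gamt was at 32.7 RPKM in Tie2 TRAP and 9.60 RPKM in Tie2 input, a ratio of 3.41 (95% interval 3.06 to 3.79). Both were higher in Tie2 TRAP than in any other library, and 89.2% and 85.1% of genes had a ratio at or below theirs. Their ratios were below those of the endothelial markers, from 445% for Erg to 1971% for Cav1 with a median of 1125%, except that Gatm, at 534%, was above Erg. The fibroblast markers ran from 111 to 511% and the macrophage and leukocyte markers from 349 to 1581%, and their part in the values of Gatm and Gamt was not tested.

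Slc6a8 was at 15.1 RPKM in Tie2 TRAP and 30.6 RPKM in Tie2 input, a ratio of 0.491 (95% interval 0.468 to 0.515). It fell between the muscle kinases and Ckb in this respect, above all 10 cardiomyocyte markers and below all 10 endothelial ones. The smooth muscle and pericyte markers ran from 7.41 to 112% of input with a median of 41.5%, a range that holds Slc6a8 and Ckb, and their part in these values was not tested.

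**Figure D4:**
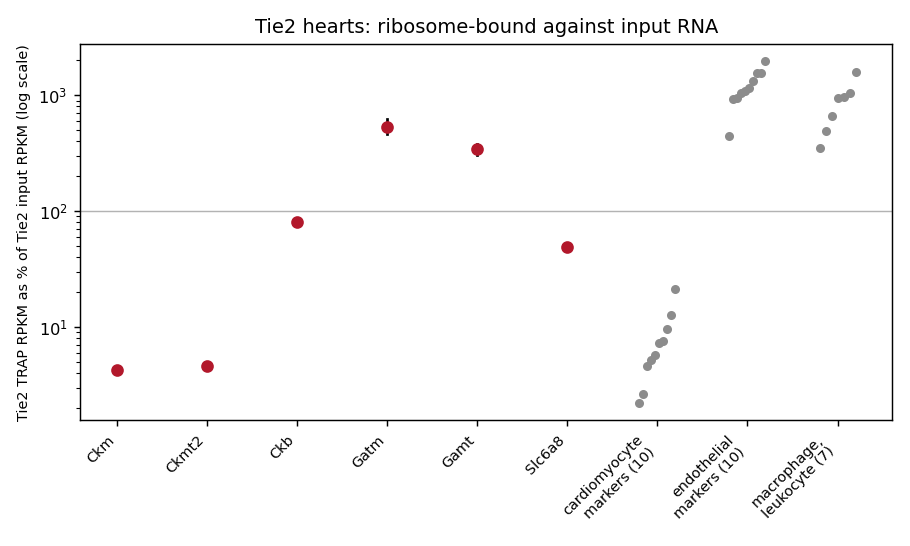
RPKM in Tie2 TRAP as a percentage of RPKM in Tie2 input (vertical log axis) for the 6 genes in red, with exact binomial 95% intervals from reads, and for single marker genes in grey. Ckm and Ckmt2, at 4.26 and 4.61%, lie among the cardiomyocyte markers, Ckb and Slc6a8 at 81.2 and 49.1% lie between the cardiomyocyte and the endothelial markers, and Gatm and Gamt at 534 and 341% lie above 100%.

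Against CAG TRAP without surgery, which shares no input with it but shares the Tie2 TRAP library with the comparison above, the members lay in the same order but for Ckm and Ckmt2, which changed places. Gatm was at 9.60 RPKM in Tie2 TRAP and 0.551 RPKM in CAG TRAP, a ratio of 17.4 (95% interval 14.4 to 21.2), and Gamt at 32.7 and 8.67 RPKM, a ratio of 3.77. Ckb was at 44.3 RPKM in Tie2 TRAP and 25.6 RPKM in CAG TRAP, 1.73 times as high. On the log2(RPKM + 1) scale this was 0.77, with 0.10 to 0.79 under the 4 alternatives, the lowest under quantile normalization. Slc6a8 was at 15.1 RPKM in Tie2 TRAP and 26.9 RPKM in CAG TRAP, a log2 difference of -0.80, with -1.81 to -0.83 under the 4 alternatives. Ckm was 14.1-fold lower and Ckmt2 15.5-fold lower in Tie2 TRAP. In this comparison 44.4% of all genes were 2-fold or more higher and 11.3% 2-fold or more lower. Genes with a ratio at or below that of Gatm, Gamt and Ckb made up 93.7%, 79.7% and 47.3%.

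Related genes were taken from lists chosen with earlier results of these data known, and are given by counts. Over all 11654 genes tested, 1763 were called higher and 2852 (24.5%) lower in TRAP after sham surgery. After banding 1938 were called higher and 3026 (26.0%) lower. Between operations 4.08% of all genes were called in input and 3.77% in TRAP. In Tie2 hearts 31.5% were 2-fold or more higher in TRAP than in input and 13.1% lower. Of the energy transfer partners, which include adenylate kinases, nucleoside diphosphate kinases, the adenine nucleotide carrier and the channels of the outer mitochondrial membrane, 16 were tested. Of these, 2 were called higher and 3 lower in TRAP after sham surgery, 3 higher and 2 lower after banding, and 0 were called between operations in either fraction, with a median in TRAP against input of 0.06 and 0.07. Vdac1, a channel through which the mitochondrial kinase is known to exchange its substrates, was at 634 ± 30.4 RPKM in sham TRAP and 884 ± 14.3 RPKM in sham input (log2 fold change -0.48, limma, adjusted p = 0.0243). This call did not hold without either sham TRAP or either sham input library (adjusted p = 0.0807 to 0.125), and without any filter (0.0762), over a range from 0.000850. After banding it was at 521 ± 98.8 RPKM in band TRAP and 778 ± 25.4 RPKM in band input (-0.59, adjusted p = 0.0107), a call lost without band input library 1 (0.0694), the only 1 of 17 alternatives. Nme6, of the nucleoside diphosphate kinase family, was higher in TRAP, at 12.6 ± 0.740 RPKM against 7.23 ± 0.496 RPKM in sham input (0.72, adjusted p = 0.00392), and its call held under all 17 alternatives. In Tie2 hearts, 2 of the 16 were 2-fold or more higher in TRAP than in input, 7 lower and 7 neither. Among the lower ones, Ak1, the cytosolic adenylate kinase of muscle, was at 30.3 RPKM in Tie2 TRAP against 467 RPKM in Tie2 input. Slc25a4, the adenine nucleotide carrier of heart, was at 409 against 3027 RPKM.

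Of the genes that supply arginine, glycine and methyl groups for creatine synthesis, 16 were tested, and 3 were called higher and 7 lower in TRAP after each operation. The median log2 fold change was -0.29 after sham surgery and -0.28 after banding. Mat2a, which makes the methyl donor S-adenosylmethionine, was at 5.49 ± 0.504 RPKM in sham TRAP and 12.2 ± 0.211 RPKM in sham input (-1.02, limma, adjusted p = 0.0147), a call lost without any 1 of the 4 libraries compared (0.0565 to 0.0830) and without any filter (0.0668), over a range from 0.000133. After banding it was at 5.10 ± 2.42 RPKM in band TRAP and 13.8 ± 0.301 RPKM in band input (-1.33, adjusted p = 0.00496), and this call held under all 17 alternatives. Oat, which breaks down ornithine, the by-product of the first step, was at 23.3 ± 0.373 RPKM in sham TRAP and 39.0 ± 1.16 RPKM in sham input (-0.72, adjusted p = 0.00363), and Oat too kept its call in all 17. Gnmt, a glycine methyltransferase, was higher in band TRAP, at 7.34 ± 0.309 RPKM against 4.68 ± 0.455 RPKM in band input (0.56, adjusted p = 0.00396). In Tie2 TRAP, Ass1, which takes part in making arginine, was at 7.75 RPKM against 1.68 RPKM in Tie2 input, and it was the only 1 of the 16 that was 2-fold or more higher there, with 5 lower.

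Between operations, 1 of these 16 was called in input and 0 in TRAP. Arg1, arginase, was at 3.04 ± 0.648 RPKM in band input and 1.18 ± 0.275 RPKM in sham input (log2 fold change 0.89, limma, adjusted p = 0.0426). The call was lost in 9 of 16 alternatives, among them leaving out any 1 of the 6 libraries of band input, sham input and sham TRAP, with adjusted p between 0.0101 and 0.288 in all. Arg1 reached 1 RPKM in both band input libraries and in 1 sham input library and in no other, so that it passed the filter mainly where it was high. Without a filter its adjusted p was 0.111.

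A further list held 11 genes, transporters of the SLC6 family like Slc6a8, and Slc16a12, listed for creatine efflux. Of these 1 was tested, Slc6a6, the taurine transporter, and the other 10 did not pass the filter. Slc6a6 was at 16.0 and 14.49 RPKM in band TRAP, against 8.66 and 8.88 RPKM in sham TRAP (log2 fold change 0.73, limma, adjusted p = 0.0204). It was at 19.9 and 16.0 RPKM in band input, against 11.97 and 11.7 RPKM in sham input (0.55, adjusted p = 0.0462). The band libraries were above the sham libraries in both fractions, where Slc6a8 had 0.14 and 0.13 and was not called, a difference between the transporters that was not tested. The call in TRAP was lost without either sham TRAP or either sham input library (adjusted p = 0.0646 to 0.155), in 5 of 17 alternatives, and that in input in 9 of 17, among them leaving out any 1 of the libraries of band input, sham input and sham TRAP (0.0762 to 0.290). It was also called lower in sham TRAP than in sham input (-0.40, adjusted p = 0.0308), a call lost in 6 of 17 alternatives, among them leaving out any 1 of these 4 libraries (0.110 to 0.140). With the length trend removed it was -0.02 (adjusted p = 0.876). In Tie2 TRAP it was at 38.3 RPKM against 7.54 RPKM in Tie2 input, opposite to Slc6a8.

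Of 12 tested users and partners of creatine kinase in muscle, 1 was called higher and 4 lower in TRAP after sham surgery, and 3 higher and 3 lower after banding. Myh6, the alpha myosin heavy chain of the adult mouse heart, was at 1758 ± 53.0 RPKM in sham TRAP and 3525 ± 139 RPKM in sham input (log2 fold change -1.003, limma, adjusted p = 0.00218). Myom1, of the M-band at which the muscle kinase is known to bind, was at 36.8 ± 0.829 RPKM in sham TRAP and 70.5 ± 1.57 RPKM in sham input (-0.92, adjusted p = 0.00118), and both calls held under all 17 alternatives. In Tie2 TRAP 10 of the 12 were 2-fold or more lower, Myh6 at 229 RPKM against 3963 RPKM in Tie2 input.

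Of 18 tested regulators of energy metabolism, 2 were called higher and 7 lower in TRAP after sham surgery, and 3 higher and 5 lower after banding. Ppargc1b, a coactivator of mitochondrial genes, was at 3.61 ± 0.358 RPKM in sham TRAP and 8.16 ± 0.520 RPKM in sham input (log2 fold change -0.99, limma, adjusted p = 0.00103), and at 4.62 ± 0.0589 RPKM in band TRAP and 10.3 ± 1.01 RPKM in band input (-1.01, adjusted p = 0.000726), calls that held under all 17 alternatives. Stat3, a transcription factor of cytokine signalling, was called higher after banding, at 20.3 ± 1.78 RPKM in band input and 13.7 ± 0.0644 RPKM in sham input (0.54, adjusted p = 0.0320), and at 12.5 ± 0.959 RPKM in band TRAP and 7.93 ± 0.445 RPKM in sham TRAP (0.60, adjusted p = 0.0245). These calls were lost in 9 and 6 of 17 alternatives, up to an adjusted p of 0.236 and 0.206, in input without any 1 of the libraries of band input, sham input and sham TRAP and in TRAP without any 1 of those of sham TRAP and sham input. In Tie2 TRAP, Esrrb and Ppargc1a, regulators of mitochondrial genes, were at 0.559 and 0.392 RPKM against 7.17 and 4.001 RPKM in Tie2 input, and 6 of the 18 were 2-fold or more lower.

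Over the 10 CAG libraries, the levels of the members moved together in part. Pearson's r of log2(RPKM + 1) was 0.73 between Gatm and both Ckb and Ckmt2, 0.68 between Ckm and Ckmt2, 0.69 between Ckmt2 and Slc6a8, and -0.63 between Gatm and Gamt. These are descriptions over libraries that share fractions and operations, and fractions alone part several of the genes. The gene whose pattern was most like that of Ckm was Prrg3 (r = 0.97), that of Ckmt2 was most like Kcmf1 (0.98), that of Ckb most like Praf2 (0.96) and that of Gatm most like Mau2 (0.995). For Gamt it was Mapkap1 (0.92) and for Slc6a8 Cul7 (0.97). Others among the most alike were Kcnk2 for Ckm, Dcaf5 and Plekhb2 for Ckmt2, Gmpr2 and Pcolce for Ckb, Fndc3b and Mfap1b for Gatm, Orai1 and Rpain for Gamt, and Mvp and Pdcd7 for Slc6a8. Prrg3, Kcnk2 and Fndc3b averaged only 0.616, 1.09 and 1.001 RPKM in these libraries, near the filter. Each gene was picked for its high r among all genes kept, over 10 libraries, so that the r values are raised by the choice. Shared control was not tested.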

How the data were processed

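The deposited table of the authors holds RPKM values of 34306 genes, with a transcript identifier and a length per gene, in 12 libraries of adult mouse heart. It has 0 columns of other samples. The tools named for the reads are TopHat 1.4, HTSeq 0.5.3 and CASAVA 1.8.2, with the build NCBIM37. These names come without order or settings, per the submitters' processing notes. Per the labels' protocols, libraries were made without a strand mark, so a gene and an overlapping or antisense neighbour share reads. There are 53 samples in the series. The 12 columns were matched to the 24 samples of its later deposit, whose titles carry the unexplained endings l1 and l2, and the 29 samples of the first deposit were not analysed here.

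RPKM times length fell on whole multiples of 1 read for 233410 of 233410 positive values (tolerance 0.02 reads), which gave the reads behind each value. From the deposited RPKM values, limma 3.58.1 (R 4.3.3, with a trend, two-sided) was fitted to log2(RPKM + 1) of all 12 libraries, with group means. It used the 11654 genes that reached 1 RPKM in 2 or more libraries. Residual degrees of freedom were 4 and the prior 3.02, with a spread shared by all groups. Values of p were adjusted by Benjamini and Hochberg over these genes, and called under 0.05. The procedure was run on simulated data for banding against sham surgery in input only, with planted changes larger than those of the members there. That run does not cover TRAP against input, the scaling between libraries or the length trend. Comparisons of single libraries have no test and use a 2-fold difference of RPKM + 1. Alternatives were other pseudocounts, filters, scalings, a length correction, voom on recovered reads, fewer libraries, a replicate block and leaving out each library.

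The members, lists and markers were chosen with earlier results of these data known. The 6 members are named always, and of each list up to 4 called genes a comparison with the largest change were eligible, of which some are described. For each member, up to 3 genes with the highest correlation over the 10 CAG libraries are named. Some genes that these rules select are not reported here. Promoter letters come from RefSeq GRCm38.p6.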

Additional observations from a re-analysis of the deposited data

How the results depend on the processing

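With 2 libraries a group, the counts of calls depended strongly on single libraries. After sham surgery, 4 members were called in TRAP against input under quantile normalization, 5 under rescaling and 4 with the length trend removed, in place of 2, and 1 to 4 when 1 library was left out. After banding, 5 were called under quantile normalization and 5 under rescaling in place of 3, and 1 to 4 when 1 library was left out. The count over all genes moved too. Over the 9 alternatives other than leaving out 1 library, it ran from 3109 to 5307 after sham surgery and from 3284 to 5668 after banding. The number of genes tested differed where the filter did. Between operations 0 to 1 members were called in input, and 0 in TRAP and in the interaction, when 1 library was left out. Genes called after sham surgery numbered 1917 to 6388 when 1 library was left out, in place of 4615, and after banding 2779 to 6269, in place of 4964, with 3284 under a filter of 5 RPKM, which tests fewer genes. Between operations they numbered 26 to 1511 in input, in place of 476, and 33 to 1971 in TRAP, in place of 439, with 207 in TRAP without a filter. In the interaction 2 genes were called with a pseudocount of 0.1 RPKM, 2 without a filter, and 0 to 197 when 1 library was left out.

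With the replicate block, 265 genes were called between operations in input and 263 in TRAP, and no other count of genes moved by over 1.5 times. The labels do not say that the numbers pair libraries, so the main fit had no block. Correlations between the deviations of same-numbered libraries ran from -0.516 to 0.229 over the pairs of groups. The lowest was between sham TRAP and band TRAP, where TRAP library 1 of each operation tended to deviate with library 2 of the other. The limma fit took all libraries as independent.

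Small differences changed sign. Those of Gamt turned to -0.0076 after sham surgery and -0.0060 after banding with the length trend removed, and to -0.0080 after banding under rescaling, and its interaction turned to 0.0016 with the length trend removed. The interaction of Slc6a8 turned to -0.0047 under quantile normalization. When 1 library was left out, Gamt ran from -0.046 to 0.22 between operations in input, from -0.050 to 0.17 in TRAP and from -0.16 to 0.11 in the interaction. In TRAP between operations Ckb ran from -0.076 to 0.14 and Gatm from -0.028 to 0.29. In the interaction Ckmt2 ran from -0.017 to 0.047, Gatm from -0.11 to 0.21 and Slc6a8 from -0.083 to 0.11. None of these was past the threshold before or after. The cause of these moves was not tested.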
